A study of Mus musculus with 14 samples.

Results

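Il34, Clnk, Napsa and Cela1 are 4 genes whose level changed between the DN2 and DN3 stages of early T cell development in the mouse thymus. They were chosen by their adjusted p-values in the comparison of DN3 with DN2 cells, in which they were the only named genes among the features called. Each is read by 1 probe on every array, so the 4 genes are followed here through 4 of the 14217 named genes tested. Il34 (probe A_51_P268234) encodes a cytokine, Clnk (A_51_P298066) an intracellular adaptor, and Napsa (A_51_P146149) and Cela1 (A_52_P578634) encode proteases. Both the choice of the genes and every value of DN3 against DN2 come from the same arrays, so those values are a description and carry no test here.

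Bone marrow of C57BL/6 mice carrying Cre-ERT2, a Cre recombinase that tamoxifen switches on, was given to wild-type recipients that were CD45.1+ and had been lethally irradiated. The marrow had both genes floxed (Ezh2Δ/Δp53Δ/Δ after deletion), Ezh2 floxed (Ezh2Δ/Δ), p53 floxed (p53Δ/Δ) or neither (WT, with Cre-ERT2 alone), and deletion followed 4 weeks after transplantation. Of the 14 arrays, 2 hold DN2-gated leukemic cells from Ezh2Δ/Δp53Δ/Δ mice 13 and 19 that had early T cell precursor acute leukemia, ETP-ALL for short. The other 12, 1 for each genotype at each of 3 stages, hold CD4-CD8- cells sorted 3 months after transplantation. DN1 cells were CD44+CD25-. DN2 cells carried CD25 beside CD44, and DN3 cells were CD25+ and had lost CD44. Age is not in the labels, which also give no promoter for the Cre, no number of pooled mice and no gate on the donor's CD45 form, so remaining cells of the host cannot be told apart from donor cells. Nothing says whether separate mice gave the 3 stages of a genotype, so every p measures the spread between these arrays, which may be technical. Precision is limited by how few arrays there are.

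DN1, DN2 and DN3 follow each other in the thymus. DN1 cells can still give rise to other blood lineages, Notch signals commit them to the T lineage during DN2, and DN3 cells rearrange the T cell receptor beta chain and are tested for it through the pre-T cell receptor. The cytokine made from Il34 shares its receptor, CSF1R, with CSF1 and is best known for keeping microglia and Langerhans cells alive. Clnk belongs to the adaptor family of Lcp2 and Blnk, which link immune receptors to phospholipase C gamma and are used in mast cells, NK cells and lymphocytes. Napsin A, the product of Napsa, is an aspartic protease of lysosomes known from lung and kidney, and the product of Cela1 is a serine protease, an elastase, known from the pancreas.

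The letters upstream of Clnk and Cela1 are shown because the measured values of both genes went down at the same step. The promoter table used here, from RefSeq (GRCm38.p6), held these 2 of the 4 genes, and Il34 and Napsa are named only. In the 250 bases before each listed start site, 7 motifs of factors that act at this stage were searched on both strands: AGATAA and TGATAA for GATA factors, GAGGAA for PU.1, TGTGGT for RUNX, CTTTGA for TCF/LEF, and CAGCTG and CACCTG for E proteins. No 2 of these motifs overlapped in either window. Below, the strand is that of the gene and capitals mark the matches. For Cela1 the whole window is printed, chr15:100687921-100688170 on the minus strand, and for Clnk only the 85 bases that lie beyond the outermost annotated end of the gene, chr5:38876859-38876943 on the minus strand.
Clnk: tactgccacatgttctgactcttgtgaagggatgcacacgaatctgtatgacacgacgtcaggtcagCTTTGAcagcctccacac
Cela1: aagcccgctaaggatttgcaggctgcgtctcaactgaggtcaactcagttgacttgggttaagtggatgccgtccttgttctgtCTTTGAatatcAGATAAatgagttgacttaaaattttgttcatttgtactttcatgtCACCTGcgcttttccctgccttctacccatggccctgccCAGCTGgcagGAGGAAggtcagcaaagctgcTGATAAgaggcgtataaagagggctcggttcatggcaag

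Within its window Cela1 had 6 matches, to every motif searched but that of RUNX, and in the order from far to near they were those of TCF/LEF, GATA, both E protein motifs, PU.1 and GATA again. The Clnk window had 4, of which the TCF/LEF match farthest from the start is printed. A second TCF/LEF match and a RUNX match, both on the opposite strand, and a PU.1 match lay in the part not printed. Such short motifs are common. Of 32851 promoter windows of this length, 13.8% held CTTTGA, 23.3% GAGGAA, 14% TGTGGT, 9.99% AGATAA, 7.94% TGATAA, 13% CAGCTG and 17.2% CACCTG. A match describes the letters of the window and is neither a bound site nor a cause.

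A level below is log2 of the processed signal of a probe minus the 75th percentile of its array on the same log2 scale, so 0 is the signal that 75% of the probes do not exceed. Levels of different probes are not set against each other. That percentile was 70.3 to 141 for the 6 Ezh2Δ/Δ and p53Δ/Δ arrays, which share slide 2, and 298 to 591 for the other 8. On each array 40.3% to 50.4% of probes were well above background. As a check of the sort, Il2ra (CD25) had levels of 0.40 to 2.41 at DN1, 5.19 to 7.55 at DN2 and 5.21 to 7.22 at DN3, and Cd44 levels of 2.50 to 3.57 at DN1, 1.09 to 3.47 at DN2 and -2.21 to -0.58 at DN3. Trp53, which encodes p53, was not well above background on any p53Δ/Δ array (-5.58 to -3.70), was above it in Ezh2Δ/Δp53Δ/Δ DN1, DN2 and DN3 cells at -4.06, -2.59 and -1.11, and lay between -0.01 and 1.49 on the p53-intact arrays. In the leukemias Trp53 was at -6.04, not well above background, in mouse 13 and at -4.03 in mouse 19. The Ezh2 probe showed no loss (2.56 to 4.14 on the 6 non-leukemic Ezh2-deleted arrays and 2.23 to 4.26 on the 6 Ezh2-intact arrays), and no source used here says whether it lies in the deleted part. It therefore checks nothing. Xist was above background only on the 3 Ezh2Δ/Δ arrays (1.54 to 2.37) and Ddx3y was below it only there, so sex differs between Ezh2Δ/Δ cells and all others.

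**Figure D1:**
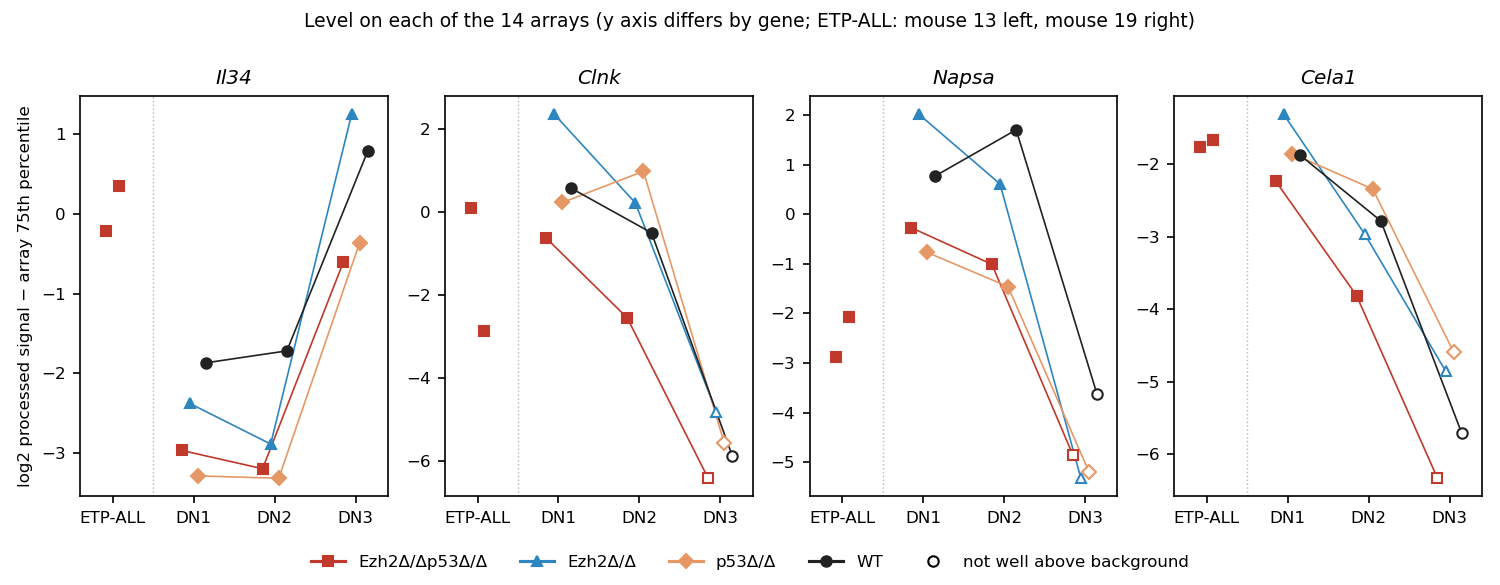
Level of each gene on each of the 14 arrays, as log2 processed signal minus the 75th percentile of the array (y axis, its range differing by gene), by leukemia or stage (x axis). Lines join the stages of a genotype and open symbols are not well above background. Il34 stays low through DN1 and DN2 and is high at DN3 in all 4 genotypes, while the other 3 genes are below background at DN3.

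Il34, the cytokine gene, was the member that went up. At DN1 its level was -2.97 in Ezh2Δ/Δp53Δ/Δ, -2.38 in Ezh2Δ/Δ, -3.29 in p53Δ/Δ and -1.87 in WT cells. At DN2 the 4 levels were -3.20, -2.89, -3.32 and -1.72 in the same order of genotypes, and at DN3 they were -0.60, 1.25, -0.36 and 0.79. The lowest DN3 level thus lay above the highest DN2 and DN1 levels, and the probe was well above background on all 14 arrays. Mean levels were 0.27 ± 0.89 at DN3 and -2.78 ± 0.73 at DN2 (SD, n = 4 each), a difference of 3.06 ± 0.28 (SE) or 8.32-fold. Within a genotype the step measured 2.60 in Ezh2Δ/Δp53Δ/Δ, 4.15 in Ezh2Δ/Δ, 2.96 in p53Δ/Δ and 2.52 in WT cells. In sorted bulk cells, a change in the share of cells that express a gene and a change in RNA per cell cannot be told apart, here and in every result that follows.

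Clnk, the adaptor gene, went down. Its DN1 levels were -0.63 in Ezh2Δ/Δp53Δ/Δ, 2.35 in Ezh2Δ/Δ, 0.23 in p53Δ/Δ and 0.58 in WT cells, and its DN2 levels -2.55, 0.22, 0.98 and -0.50 in that order. At DN3 the measured values of -6.41, -4.81, -5.57 and -5.88 were all not well above background and set only a bound. Against that bound, Clnk was at least 8.89-fold lower at DN3 than at DN2, where it was above background on 4 of 4 arrays (measured means -5.67 ± 0.67 and -0.46 ± 1.52, SD, n = 4 each). The DN1 and DN2 ranges overlapped, and the DN3 values lay below both.

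Napsa, the lysosomal aspartic protease gene, showed the same order of stages. It had DN1 levels of -0.27 in Ezh2Δ/Δp53Δ/Δ, 2.01 in Ezh2Δ/Δ, -0.77 in p53Δ/Δ and 0.77 in WT cells, and DN2 levels of -1.01, 0.61, -1.46 and 1.70 in that order. None of the 4 DN3 values (-4.85, -5.32, -5.19 and -3.63) was well above background. The level at DN3 was at least 11.9-fold lower than at DN2 (measured means -4.75 ± 0.77 and -0.04 ± 1.46, SD, n = 4 each). WT cells held the highest DN2 level, and p53Δ/Δ cells the lowest.

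Cela1, the elastase gene, also went down, and was already close to background at DN2. Its DN1 levels were -2.23 in Ezh2Δ/Δp53Δ/Δ, -1.31 in Ezh2Δ/Δ, -1.85 in p53Δ/Δ and -1.87 in WT cells. At DN2 they were -3.81, -2.96, -2.34 and -2.78 in that order, of which the Ezh2Δ/Δ value was not well above background. At DN3 none was, with measured values of -6.33, -4.85, -4.59 and -5.71. The measured means were -5.37 ± 0.80 at DN3 and -2.97 ± 0.62 at DN2 (SD, n = 4 each), and since 1 of the 4 DN2 values was itself not well above background, no bound on this fold is given. Against DN1, where all 4 were above background, DN3 was at least 3.47-fold lower.

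The comparison of DN3 with DN2 called 6 of 26990 features, or 0.0222%, and these 4 genes are 4 of the 6 by construction. The adjusted p of limma that chose them was 0.0116 for Il34 and Clnk and 0.0424 for Napsa and Cela1, the members just inside the threshold of 0.05. Just outside stood an unnamed probe at 0.0509 and then, among named genes, Irak3 at 0.0726 (difference -1.76 ± 0.22, SE) and Slc25a24 at 0.0738 (-1.74 ± 0.23). Irak3 was above background on 1 of 4 DN3 and 3 of 4 DN2 arrays, and Slc25a24 on all 8. Irak3 damps Toll-like receptor signalling, and Slc25a24 is a mitochondrial carrier. Against DN1, all 4 genes were again called at DN3, where 7.73% of all features were; that comparison uses the same DN3 arrays and is no separate evidence.

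**Figure D2:**
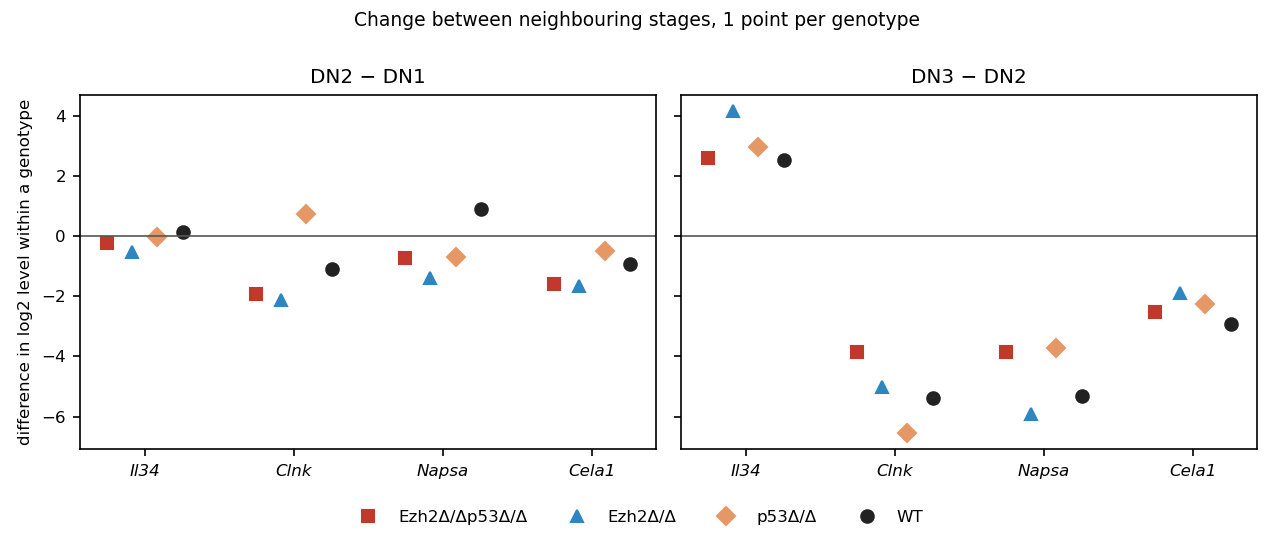
Difference in log2 level (y axis) between DN2 and DN1 (left) and between DN3 and DN2 (right) for each gene (x axis), 1 point per genotype. Differences at DN3 of Clnk, Napsa and Cela1 use values not well above background. Il34 moved by -0.51 to 0.15 in the first step and by 2.52 to 4.15 in the second.

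The earlier step, between DN1 and DN2, was read in the same fit. None of the 4 was called between DN2 and DN1, where 1.38% of all features were (limma, Benjamini-Hochberg adjustment), and 2 of the 4 had an unadjusted p under 0.05. This comparison shares the DN2 arrays with the one that chose the genes. Il34 differed by -0.15 ± 0.28 (SE, 95% interval -0.78 to 0.47), with a DN2 level above that of DN1 in 1 of 4 genotypes. Napsa differed by -0.48 ± 0.51 (-1.63 to 0.68) and was higher at DN2 only in WT cells, by 0.92, with -0.74 in Ezh2Δ/Δp53Δ/Δ, -1.40 in Ezh2Δ/Δ and -0.68 in p53Δ/Δ cells. Clnk differed by -1.09 ± 0.46 (adjusted p = 0.239) and had differences of -1.91 in Ezh2Δ/Δp53Δ/Δ, -2.12 in Ezh2Δ/Δ, 0.75 in p53Δ/Δ and -1.08 in WT cells. Without the p53Δ/Δ DN2 array its difference was -1.62 (adjusted p = 0.0341), the only 1 of 12 fits leaving out 1 array that called it. Over the 12 its adjusted p reached 0.569. Cela1 was lower at DN2 in 4 of 4 genotypes, by 0.49 to 1.65, with a mean difference of -1.16 ± 0.27 (adjusted p = 0.0817). Its adjusted p was 0.0211 without the p53Δ/Δ DN1 array, likewise the only 1 of 12 such fits to call it, and reached 0.32 over the 12. With signals floored at the lowest signal above background, the Cela1 difference was -1.16 for this step (adjusted p = 0.0291) and -0.64 between DN3 and DN2 (adjusted p = 0.601).

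Whether the DN3 step itself depended on genotype was read with an interaction term, over all features and, for the members, as a description. The additive fit that chose the genes counts such an interaction as residual spread, so the choice favoured genes with similar steps across genotypes. The same spread enters the errors of the genotype and leukemia differences of these genes, which may therefore be too small. With limma, no feature was called for either deletion (0% of 26990, with 575 and 950 features at an unadjusted p under 0.05 for Ezh2 and p53). The interval of the difference in step between Ezh2-deleted and Ezh2-intact cells was -0.76 to 2.03 for Il34, -0.23 to 3.25 for Clnk, -2.32 to 1.97 for Napsa and -0.83 to 1.60 for Cela1. Between p53-deleted and p53-intact cells it was -1.90 to 0.80 for Il34, -2.27 to 2.27 for Clnk, -0.32 to 4 for Napsa and -1.35 to 1.42 for Cela1. These intervals are wide, and for the 3 genes below background at DN3 the size of the step is itself only bounded.

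The level of Il34 was lower in p53-deleted cells. Over the 3 stages, p53-deleted arrays (Ezh2Δ/Δp53Δ/Δ and p53Δ/Δ) averaged -2.29 and p53-intact arrays (Ezh2Δ/Δ and WT) -1.14 (n = 6 each), a difference of -1.15 ± 0.23 or 2.23-fold lower (limma, adjusted p = 0.0222). It was the 1 member of 4 called, where 7.79% of all features were. At each stage both p53-deleted levels lay below both p53-intact levels, with mean differences of -1.01 at DN1, -0.95 at DN2 and -1.5 at DN3. With so few arrays a side, groups can lie apart by chance. The share of all features that did so was not counted, here and for the separations by p53 given below. The call was lost, with adjusted p between 0.0564 and 0.0677, without the WT DN2, the Ezh2Δ/Δp53Δ/Δ DN2 or the Ezh2Δ/Δp53Δ/Δ DN3 array, and at 0.118 on the 8 arrays without DN3, a setting added after seeing the data.

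Slides hold different genotypes, so the p53 difference of Il34 was also read within them. On slide 1, Ezh2Δ/Δp53Δ/Δ cells minus WT cells gave -1.48 at DN2 and -1.39 at DN3. On slide 2, p53Δ/Δ cells minus Ezh2Δ/Δ cells gave -0.91 at DN1, -0.43 at DN2 and -1.61 at DN3. All 5 pairs thus ran the same way, and with slide as a fixed block the difference was -1.22 ± 0.25 (adjusted p = 0.0485). Each of these pairs also differs in Ezh2, and the pairs on slide 2 also differ in sex.

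Napsa followed p53 in the less mature cells without passing the threshold. Its mean was -2.26 on p53-deleted and -0.64 on p53-intact arrays, a difference of -1.61 ± 0.42 (adjusted p = 0.0502). At DN1 and DN2 the groups did not overlap, with differences of -1.91 and -2.39, while at DN3, where every value was below background, they did. The within-slide pairs at DN1 and DN2 gave -2.70, -2.79 and -2.07. Without the Ezh2Δ/Δ DN3 array its adjusted p was 0.0260, the only 1 of 12 fits leaving out 1 array that called it. Over the 12 its adjusted p reached 0.138. Clnk differed by -0.98 ± 0.38 (adjusted p = 0.135), with no overlap at DN1 alone, and Cela1 by -0.28 ± 0.22 (adjusted p = 0.457).

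Deletion of Ezh2 was tested over the same arrays, and none of the 4 genes was called, where 3.81% of all features were. The differences between Ezh2-deleted and Ezh2-intact arrays were -0.17 ± 0.23 for Il34 (95% interval -0.68 to 0.34), -0.28 ± 0.38 for Clnk (-1.13 to 0.57), -0.04 ± 0.42 for Napsa (-0.99 to 0.91) and -0.39 ± 0.22 for Cela1 (-0.88 to 0.10). The same fit chose the genes and so favoured a small residual spread, and these intervals may be too narrow. For Clnk, Napsa and Cela1 they also include values not well above background. No limit on an effect of Ezh2 is read from them. None of the 4 had an unadjusted p under 0.05.

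Single genotypes were also set against WT. In Ezh2Δ/Δp53Δ/Δ cells Il34 averaged -2.26 ± 1.44 and in WT cells -0.93 ± 1.5 (SD over the 3 stages). The difference over matched stages was -1.33 ± 0.32 (limma, adjusted p = 0.0426). Il34 was the 1 of 4 members called, where 7.48% of features were. This call did not hold with slide as a fixed block (-1.46, adjusted p = 0.106) or within slide 1 (-1.44, adjusted p = 0.0968), and it was lost in 10 of the 12 fits that left out 1 array, with an adjusted p of 0.0237 to 0.15 over the 12. Comparisons of Ezh2Δ/Δ and of p53Δ/Δ cells with WT cells lie on different slides, where slide and genotype cannot be told apart. There, 34.1% and 35.9% of all features were called, with 0 of 4 members for Ezh2Δ/Δ and 2 of 4 for p53Δ/Δ cells, Il34 at -1.39 ± 0.32 (adjusted p = 0.00944) and Napsa at -2.09 ± 0.59 (adjusted p = 0.0238, lost in 4 of 12 fits that left out 1 array). Neither call held with normexp background correction (Il34 -0.45, adjusted p = 0.0693, and Napsa -0.81, adjusted p = 0.165), and with signals floored Napsa was at -1.47 (adjusted p = 0.0746). These 3 comparisons share the WT arrays.

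**Figure D3:**
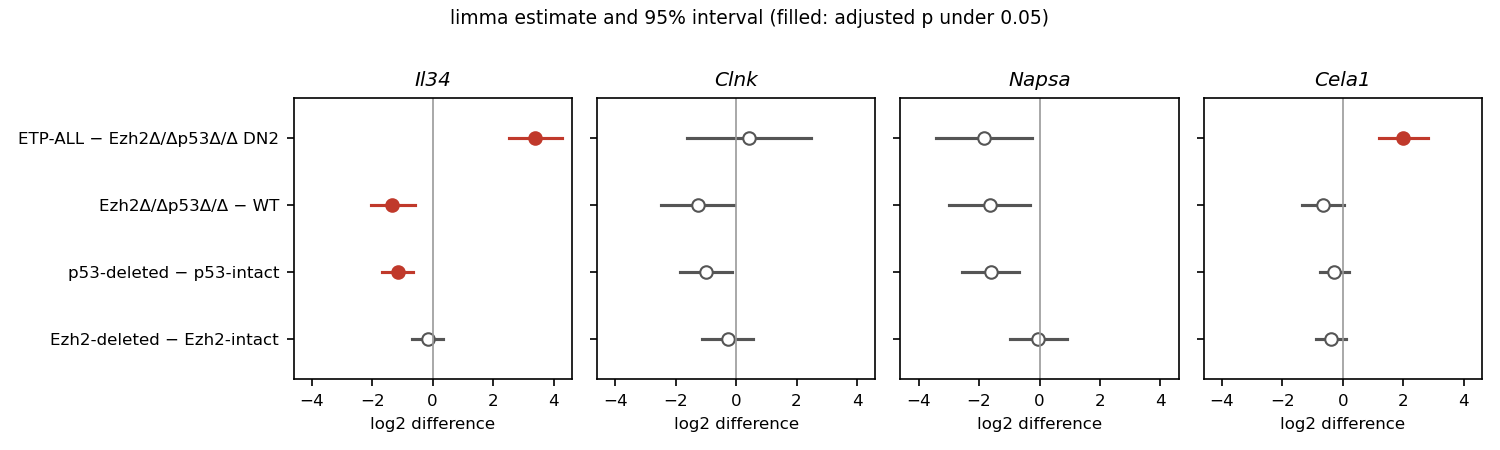
limma estimates of the log2 difference (x axis) with 95% intervals for each gene, for ETP-ALL against Ezh2Δ/Δp53Δ/Δ DN2, Ezh2Δ/Δp53Δ/Δ against WT, p53-deleted against p53-intact and Ezh2-deleted against Ezh2-intact cells (rows). Filled red points have an adjusted p under 0.05. Il34 is lower in p53-deleted cells and higher in ETP-ALL, and Cela1 is higher in ETP-ALL.

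The leukemias carried the DN2 gate but had the 4 genes in a mixture of stage levels. Il34 was at -0.22 in mouse 13 and 0.35 in mouse 19, against -3.20 in Ezh2Δ/Δp53Δ/Δ DN2 cells. Both leukemias lay above the DN1 and DN2 levels of all genotypes, above the p53-deleted DN3 levels and below the p53-intact ones. Against the fitted Ezh2Δ/Δp53Δ/Δ DN2 level, Il34 was higher by 3.39 ± 0.39 or 10.5-fold (limma, adjusted p = 0.00338), and it kept an adjusted p of at most 0.0315 when any 1 of the 14 arrays was left out. Il34 was chosen with low values on the DN2 arrays, on which this fitted level rests in part. The difference may therefore be too large, and leaving out arrays does not remove this. Against DN3 cells of the same genotype, a comparison added after seeing the data, the difference was 0.34 ± 0.39 (95% interval -0.55 to 1.22, adjusted p = 0.662). In that comparison 2 of 4 members, Clnk and Cela1, were called where 3.9% of all features were. Both were chosen with low values on the DN3 arrays, which were not well above background, so these calls are no separate evidence.

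Cela1 was the second of the 2 members called of 4, where 2.44% of all features were. Its levels of -1.76 in mouse 13 and -1.67 in mouse 19 stood against -3.81 in Ezh2Δ/Δp53Δ/Δ DN2 cells, a difference from the fitted DN2 level of 2 ± 0.36 or 4-fold (adjusted p = 0.0221). Both leukemias were above 11 of the 12 non-leukemic arrays. Only Ezh2Δ/Δ DN1 cells were higher, and the difference from Ezh2Δ/Δp53Δ/Δ DN1 cells, a comparison added after seeing the data, was 0.84 ± 0.36 (adjusted p = 0.241). Il34 alone of the 4 was called against DN1, where 3.42% of all features were (3.24 ± 0.39, adjusted p = 0.00383). The call against DN2 was lost in 4 of the 14 fits that left out 1 array, those without the Ezh2Δ/Δp53Δ/Δ DN2 or DN3 array or without either leukemia, with estimates of 1.89 to 2.16 over all 14 and adjusted p up to 0.163. The fitted DN2 level rests in part on DN2 arrays that chose the genes.

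Clnk and Napsa were not called. Clnk differed between the leukemias, at 0.10 in mouse 13 and -2.87 in mouse 19, which are above and below the -2.55 of Ezh2Δ/Δp53Δ/Δ DN2 cells (difference 0.44 ± 0.92, adjusted p = 0.844). Napsa was at -2.88 in mouse 13 and -2.08 in mouse 19, against -1.01 in those DN2 cells (-1.85 ± 0.71, adjusted p = 0.220). Both leukemias were below all 8 DN1 and DN2 levels of Napsa and above its 4 values at DN3. Against the DN3 bound of the same genotype, mouse 13 was at least 18.8-fold higher in Clnk, 2.38-fold in Napsa and 5.17-fold in Cela1, and mouse 19 at least 2.39-fold, 4.15-fold and 5.52-fold. The DN3 arrays helped to choose these genes, so these folds are a description. With Il34 near its DN3 level and the other 3 genes above theirs, neither leukemia showed the 4-gene pattern of any single non-leukemic stage.

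Ordered over stages and leukemias, some neighbours did not separate beyond their spread. For Il34 the order from low to high was DN2, DN1, ETP-ALL (mean 0.06) and DN3, with overlap between DN2 and DN1 and between ETP-ALL and DN3. For Clnk it was DN3, ETP-ALL (-1.38), DN2 and DN1, and of these only DN3 stood apart. Napsa ran DN3, ETP-ALL (-2.48), DN2 and DN1, with overlap only between DN2 and DN1. By measured values Cela1 ran DN3, DN2, DN1 and ETP-ALL (-1.71), with overlap between DN1 and ETP-ALL. Its DN3 values and its Ezh2Δ/Δ DN2 value were not well above background. On the WT, Ezh2Δ/Δ and p53Δ/Δ DN3 arrays the lowest signal well above background was at -3.61, -3.38 and -3.33. These lie above the Cela1 level of -3.81 in Ezh2Δ/Δp53Δ/Δ DN2 cells. A separation of its DN3 and DN2 groups is therefore not resolved.

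Genes with the most similar profile over the 14 arrays are given as a description, since the arrays share stage, genotype and slide. Il34 went most closely with Tmprss4, a transmembrane serine protease (Pearson r = 0.816), Ninj2, an adhesion protein (0.806), and Fam222a (0.799). Close to Clnk were Gng2, a G protein subunit (0.958), and Irf5, a transcription factor of interferon responses (0.944). Napsa was closest to Plek (0.915), the granule enzyme gene Mpo (0.908) and the chemokine gene Ccl9 (0.890), and Cela1 to Tnfaip8l2 (0.958), the protease inhibitor gene Serpina3f (0.952) and Glipr2 (0.930). Among the members, Clnk and Cela1 had r = 0.964 over the 12 non-leukemic arrays and 0.802 once the mean of each stage was taken away. Clnk and Napsa dropped to 0.290 that way against 0.895 before it, and Napsa and Cela1 to 0.069 against 0.844. Napsa and Il34, which moved in opposite directions at DN3, had r = -0.717 before and 0.617 after. The choice of the genes by their step at DN3 itself shapes r before the removal. After it, r still uses DN3 values of Clnk, Napsa and Cela1, which were not well above background. No shared expression is read from these r.

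Other genes of the Il34 axis were read beside it. Of 4 listed, 3 were tested and 0 were called between DN3 and DN2, between DN2 and DN1, with deletion of Ezh2 or in the leukemias. The shares of all features called there were 0.0222%, 1.38%, 3.81% and 2.44% in that order. Ptprz1, a further Il34 receptor, was not well above background on any of the 14 arrays. Csf1r, the main receptor, was above background on all of them and differed by -0.23 ± 0.33 between DN3 and DN2. Csf1r was lower in p53-deleted cells (-1.11 ± 0.27, adjusted p = 0.0402), and Sdc1, a heparan sulfate proteoglycan that binds the cytokine, was higher by 2.88 ± 0.69 (adjusted p = 0.0411), with 6 of 6 p53-deleted and 3 of 6 p53-intact arrays above background. Levels of Csf1r in p53-deleted and p53-intact cells overlapped at DN2 and DN3, and those of Sdc1 at DN1 and DN2. At DN3 neither p53-intact Sdc1 value was well above background. On the Ezh2Δ/Δ DN3 array the lowest signal well above background was at -3.38, above the Sdc1 level of -3.41 in Ezh2Δ/Δp53Δ/Δ DN3 cells. A separation of Sdc1 at DN3 is therefore not resolved. Csf1, the other ligand, was at 0.13 in mouse 13 and -1.13 in mouse 19, and not well above background in Ezh2Δ/Δp53Δ/Δ DN2 cells (fitted difference 4.26 ± 0.99, adjusted p = 0.0591).

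**Figure D4:**
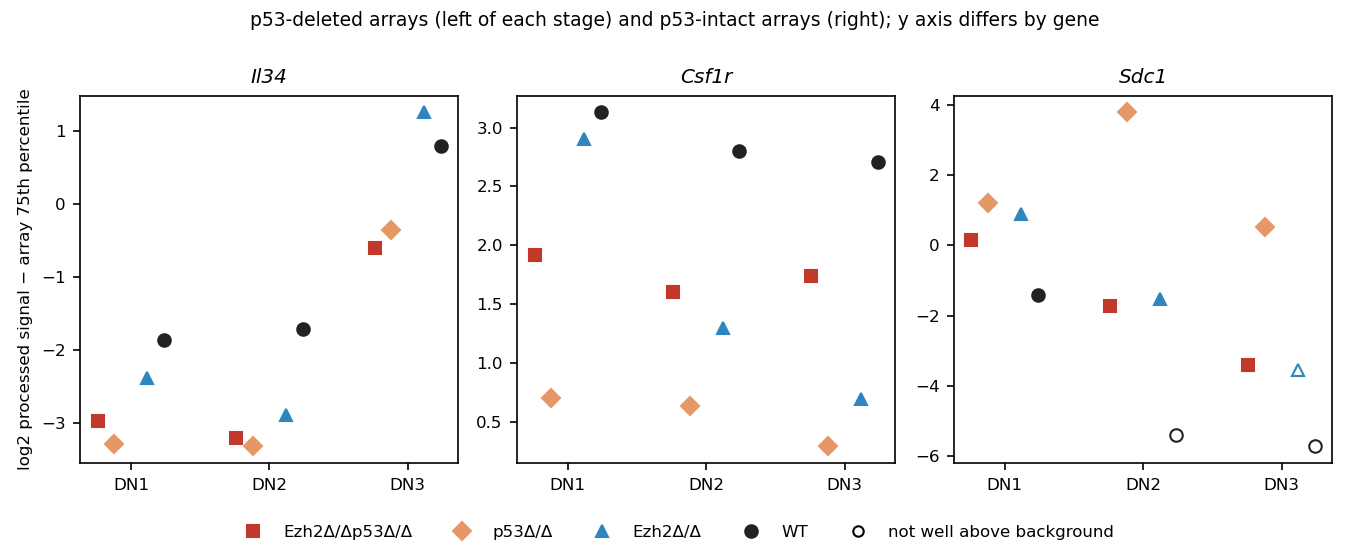
Levels of Il34, of its receptor gene Csf1r and of Sdc1 (y axis, log2 processed signal minus the 75th percentile of the array) at each stage (x axis), with p53-deleted arrays left of p53-intact ones. Open symbols are not well above background. On these few arrays, Il34 separates by p53 at every stage, while Csf1r does so only at DN1. Sdc1 overlaps at DN1 and DN2, and at DN3 its p53-intact values are not well above background.

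Adaptors and enzymes that work with Clnk or its relatives were read as well. Of 15 tested, 0 were called between DN3 and DN2, where 0.0222% of all features were. The median difference was -0.05 (all features 0.03), and the family members Lcp2 and Blnk differed by -0.12 ± 0.22 and 0.02 ± 0.57. The largest values were -2.25 ± 0.51 for Plcg2, phospholipase C gamma (adjusted p = 0.311), and -1.73 ± 0.33 for the membrane adaptor Lat2 (adjusted p = 0.200). Between DN2 and DN1, 1 of 15 was called (1.38% of all features), the adaptor Sh3bp2 at -1.30. In p53-deleted cells 3 of 15 were called lower, where 7.79% of all features were called in either direction. They were Plcg2 (-1.79), Lat2 (-1.72, above background on 5 of 6 deleted arrays) and the kinase gene Syk (-0.93). In the leukemias 1 of 15 was called, Plcg1 at -1.78, and between Ezh2-deleted and Ezh2-intact cells 0 were (2.44% and 3.81% of all features).

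Proteases related to Napsa and Cela1 were read in the same comparisons. Of 13 tested aspartic and lysosomal proteases, 0 were called between DN3 and DN2 (median -0.21), where 0.0222% of all features were. Ctsw, a cathepsin of cytotoxic lymphocytes, was lower at DN2 than at DN1 (-3.22) and lower in p53-deleted cells (-1.42), as was Ren1, renin (-0.90). These were 1 of 13 between DN2 and DN1, where 1.38% of all features were called, and 2 of 13 with deletion of p53, where 7.79% were. Ctsl was higher in Ezh2-deleted cells (1.04), and Ctsc was lower in the leukemias (-1.75). Each was 1 of 13, where 3.81% and 2.44% of all features were called. Of 10 other pancreatic serine proteases, 4 were tested, and 0 were called in any of the 5 comparisons read for these lists, with a median of 1.1 in the leukemias and -0.51 between DN3 and DN2.

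Landmark genes of T lineage commitment were read at the same steps. Of 16 tested that are known to fall at commitment, 0 were called between DN3 and DN2 (median -1.24) or between DN2 and DN1 (0.01). Of all features, 0.0222% and 1.38% were called there. Of 19 that are known to rise by DN3, 0 were called between DN3 and DN2 (median 0.48), with 2.82 ± 0.73 for Ptcra, the pre-T cell receptor alpha chain (adjusted p = 0.405), and 2 between DN2 and DN1, Il2ra (5.09) and Notch3 (2.24). With deletion of p53, 2 of the 16 and 2 of the 19 were called, all lower, where 7.79% of all features were. They were Bcl11a (-2.70) and Erg (-2.23), regulators of early progenitors, and Hes1 (-1.27) and Trat1 (-0.99). Bcl11a and Erg were above background on 4 of 6 p53-deleted and 6 of 6 p53-intact arrays and Hes1 on 3 of 6 and 4 of 6, so these 3 differences include values at background. With deletion of Ezh2, 1 of the 16 and 1 of the 19 were called, where 3.81% of all features were. Both were higher, Bcl11a (1.53, above background on 6 of 6 Ezh2-deleted and 4 of 6 Ezh2-intact arrays) and Notch3 (1.73). In the leukemias 3 of the 16 and 1 of the 19 were called, where 2.44% of all features were. Bcl11a, Erg and Gfi1b were called lower and were not well above background on either array. Ptcra was called lower (-6.28) with 1 of 2 arrays above background.

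Markers of other cell types moved between stages as well, and their part in the results was not tested. Levels are summed here as signal over the 75th percentile of the array. The NK list (12 genes) summed to 500 to 1070 at DN1, 121 to 578 at DN2 and 219 to 595 at DN3, with 12, 5 to 12 and 4 to 5 genes above background. Of these 12, 7 were called lower at DN2 than at DN1 and 0 at DN3 against DN2, where 1.38% and 0.0222% of all features were called. Among the 7, only 1 of 4 DN2 arrays was above background for each of Klrd1 and Klre1, and 2 of 4 for each of Klrb1c and Eomes, against 4 of 4 at DN1, so the sizes of their differences include values at background. Ncr1, Klrb1c, Klrd1, Klrk1, Klre1 and Eomes were above background on 0 of 4 DN3 arrays, Il2rb on 1, Gzmb on 2, and Tbx21, Prf1, Gzma and Nkg7 on 4. In the leukemias the NK sum was 908 in mouse 13 and 932 in mouse 19, against 221 in Ezh2Δ/Δp53Δ/Δ DN2 cells, and 0 of 12 were called. By p53 status the NK sums were 170 to 678 on deleted and 121 to 1070 on intact arrays, and Nkg7 alone was called, lower in p53-deleted cells (-2.47).

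The mast cell list, of a cell type that uses Clnk, summed to 9.24 to 45.1 at DN1, 17.2 to 54.7 at DN2 and 2.70 to 22.5 at DN3, with 0 of 8 tested genes called in any of the 5 comparisons. On the 4 DN2 arrays Cpa3 and Tpsb2 were above background on 4, Hdc and Mrgprb1 on 2, Gata2 on 1, and Cma1, Mcpt4, Fcer1a and Ms4a2 on 0. The mast cell sum was 30.1 in mouse 13 and 1.92 in mouse 19, and Clnk was the higher in mouse 13. At DN2, p53Δ/Δ cells had the lowest sum (17.2) and the highest Clnk level (0.98). Ezh2Δ/Δp53Δ/Δ DN3 cells had a sum of 22.5, and their Clnk value (-6.41) was not well above background and sets only a bound. A link between this list and Clnk was not tested. Granulocyte markers, to which the Napsa neighbour Mpo belongs, summed to 4.23 to 93.6 at DN1, 1.07 to 22.1 at DN2 and 1.09 to 4.64 at DN3. Of 9 tested, Prtn3 and Ms4a3 were called lower at DN2 than at DN1 and were above background on 0 of 4 DN2 arrays. By p53 status the granulocyte sums at DN1 were 4.23 and 45.8 on deleted and 48.2 and 93.6 on intact arrays. At DN2 they were 1.07 and 8.71 on deleted and 12.3 and 22.1 on intact arrays. The groups thus did not overlap at DN1 and DN2, the stages at which Napsa did not overlap either, and they did at DN3. Of the genes tested, 0 were called with deletion of p53, and a link to Napsa was not tested.

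B cell markers summed to 37.3 to 209 at DN1, 6.39 to 23.7 at DN2 and 5.50 to 30.4 at DN3. Of 10 tested, 4 were called lower at DN2 than at DN1 (among them Jchain, Ms4a1 and Fcmr), and Cd79a and Ms4a1 were above background on no DN2 or DN3 array. Cd79b, Vpreb1 and Cd22 were above it on all 8 of these arrays, and Jchain on 4 of 4 at DN2 and 1 of 4 at DN3. Cd79b (-1.76) and Vpreb1 (-1.37) were lower in p53-deleted cells, where the sums were 5.50 to 37.9, against 14.8 to 209 on intact arrays. At each stage both deleted sums lay below both intact sums. Dendritic cell markers summed to 243 to 558 at DN1, 247 to 420 at DN2 and 227 to 387 at DN3, and of 10 tested only Irf8 was called, higher in the leukemias (2.51). For macrophage markers, which include Csf1r, the sums were 2.79 to 12.3 at DN1, 2.80 to 7.78 at DN2 and 2.26 to 11.7 at DN3. Of 9 tested, 2 were called higher and 2 lower with deletion of p53, where 7.79% of all features were called. Among them, Cd14 was higher (1.29, above background on 6 of 6 deleted and 3 of 6 intact arrays). Lyz2 (-1.18, above background on 3 of 6 and 6 of 6) and Csf1r were lower. With deletion of Ezh2 1 of 9 was called, higher, and in the leukemias 1, lower (3.81% and 2.44% of all features). The macrophage sums by p53 status were 2.26 to 11.7 on deleted and 2.68 to 12.3 on intact arrays. At DN1 both deleted sums lay below both intact sums, and at DN2 and DN3 the groups overlapped. Thymic epithelium markers, from a tissue that the sort should leave out, summed to 1.34 to 2.41 at DN1, 1.38 to 2.12 at DN2 and 2.14 to 3.86 at DN3. Of 5 tested, p53-deleted cells had lower Epcam (-1.82, above background on 4 of 6 deleted arrays) and higher Ccl25 (0.91), Ezh2-deleted cells had lower Krt14 (-1.35, above background on 3 of 6 deleted arrays), and the leukemias had higher Epcam (3.30).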

How the data were processed

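RNA of 14 samples was measured on Agilent 1-colour mouse arrays from 20 ng of total RNA, per the labels' protocols. Per the file headers, the authors read the arrays with Feature Extraction 10.7.1.1, whose processed intensity is background-subtracted and detrended per spot and not scaled between arrays. The authors' deposited value table holds a linear signal scaled within each array (75th percentile 1.002 to 1.004), uncentred; no source used here says how it was made. One label text speaks of bone marrow and the design of thymus, which was followed.

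Here, log2 of the deposited processed intensity minus the 75th percentile of the array was used, without control and outlier spots. Averaging took 59305 spots to 55681 probes. The files hold no gene name column, so RefSeq accessions in them were matched to a GRCm38.p6 gene table, which named 27656 probes; the grid build is mm9, so no coordinates of probes are given. Probes above background on at least 2 arrays, and per gene that with the highest mean, gave 26990 features. limma 3.58.1 in R 4.3.3 fitted additive genotype and stage to the 12 non-leukemic arrays (6 residual degrees of freedom, 2.86 from the prior), a leukemia term to all 14 (7) and interactions (4), with Benjamini-Hochberg adjustment over all features; calls need an adjusted p under 0.05. The fits were tested on simulated data. For a bound, each dim array took its lowest signal well above background, or the probe's own if higher, and the mean of these was set below that of the bright group. Slides come from the array barcodes.

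The genes and gene lists were chosen with earlier results of these data known. Genes named are the members, the checks Cd44, Il2ra, Trp53 and Ezh2 (with Xist and Ddx3y added after values were seen), the 3 most alike per member, the 3 named next outside the threshold, and list genes called, up to the 4 of largest size per list and comparison; Ptprz1, Csf1, Lcp2, Blnk and other uncalled list genes were named after their values were seen. Some genes that the rule names are not reported here. The list of T lineage landmarks and those of other cell types come from general knowledge. Alternatives were another background correction, normalization, percentile, floor, filter, variance trend, slide blocks, slides alone, the value table, and each array left out.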

Additional observations from a re-analysis of the deposited data

How the results depend on the processing

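No paired analysis was possible because every non-leukemic group has 1 sample with the same number 1, so a block on the number would hold all 12 arrays; the additive fit matched stages within genotype. The number of members called, of 4, changed under these settings. With normexp background correction it was 1 for DN3 against DN2, 3 for p53 deletion, 3 for Ezh2Δ/Δp53Δ/Δ against WT, 2 for Ezh2Δ/Δ against WT and 1 for p53Δ/Δ against WT, the last being Cela1, higher by 0.55 (adjusted p = 0.0343), in place of Il34 and Napsa. With signals floored it was 2 for DN3 against DN2, 1 for DN2 against DN1, 2 for p53 deletion and 1 for p53Δ/Δ against WT (Il34). For DN3 against DN2 it was also 2 with the percentile over detected probes, without a filter and with slide as a fixed block, and 0 within slide 1 or slide 2 alone; DN3 against DN1 had 0 within slide 2. For p53 deletion it was 2 with a filter of 4 arrays, an intensity trend or a random slide block, where Napsa joined Il34, and 0 without the DN3 arrays. For Ezh2Δ/Δp53Δ/Δ against WT it was 0 with quantile normalization, the percentile over detected probes, no filter, a fixed slide block and within slide 1. Against Ezh2Δ/Δp53Δ/Δ DN1 cells the leukemias had 1. Single slides and fits without DN3 leave fewer arrays; for the other settings the cause was not tested. Leaving out 1 array gave 0 to 4 for DN3 against DN2, 0 to 1 for DN2 against DN1, 0 to 2 for p53 deletion, 0 to 1 for each of Ezh2Δ/Δp53Δ/Δ and Ezh2Δ/Δ against WT, 1 to 2 for p53Δ/Δ against WT and 1 to 2 for the leukemias.

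These signs turned, none of them of a called difference. Il34 between DN2 and DN1 was 0.11 with normexp and 0.13 within slide 1 (-0.30 to 0.09 leaving out 1 array), and Napsa there was 0.55 within slide 1 (-0.84 to 0.04). In Ezh2Δ/Δ against WT, Il34 was 0.18 with normexp, and Napsa 0.14 with normexp and 0.13 floored (-1.19 to 0.24). For Ezh2 deletion, Napsa was 0.09 floored and 0.28 without the DN3 arrays (-0.38 to 0.33), and Clnk -0.54 to 0.07. Clnk in p53Δ/Δ against WT was -0.23 to 1.00. The Ezh2 interaction was 0.15 with normexp and 0.03 floored for Napsa (-1.57 to 0.86), -0.01 with normexp for Cela1 (-0.06 to 0.83) and -0.07 to 1.34 for Il34. The p53 interaction of Clnk was 0.09, 0.08, 0.08 and 0.41 with normexp, quantile, detected-probe percentile and floor (-1.34 to 1.33), that of Cela1 -0.03 floored (-0.41 to 0.48) and that of Il34 -1.20 to 0.10. In the leukemias Napsa was 2.86 against DN3 and Clnk -0.65 against DN1 cells (-1.05 to 1.93). Over all features, counts of calls ranged, beside 6 for DN3 against DN2, from 0 to 22, beside 2102 for p53 deletion from 154 to 7426, beside 373 for DN2 against DN1 from 5 to 675, beside 1029 for Ezh2 deletion from 153 to 1128, beside 2085 for DN3 against DN1 from 52 to 3223, beside 2018 for Ezh2Δ/Δp53Δ/Δ against WT from 474 to 10375 and beside 658 for the leukemias from 542 to 1471. With 1 array left out, they ranged from 2 to 18, 372 to 1791, 141 to 2452, 536 to 1426, 656 to 5339, 388 to 2026 and 99 to 826 in the same order. For p53 deletion, normexp gave 1035 higher and 6391 lower calls (main setting 807 and 1295) and moved the median of all features to -0.17, against -0.08; for Ezh2Δ/Δp53Δ/Δ against WT it gave 1624 and 8751 (970 and 1048) with a median of -0.27, against -0.14. It also gave 1259 and 1517 for DN3 against DN1 (700 and 1385), 9869 and 3569 for Ezh2Δ/Δ against WT (4211 and 4989) and 8089 and 3829 for p53Δ/Δ against WT (4127 and 5549). The percentile over detected probes gave 672 and 570 for p53 deletion and 777 and 379 for Ezh2Δ/Δp53Δ/Δ against WT. Slide as a fixed block or alone could not be fitted where genotype and slide coincide.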
